A study of Mus musculus with 24 samples.

Results

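This report describes 1 comparison of a larger array study: doxorubicin against PBS, 16 h after injection, in isolated heart muscle cells of mice whose Top2b gene had been deleted in cardiomyocytes. Its members are the 6 arrays whose titles name the Top2b-deleted genotype, the 16 h time and either treatment, 3 with doxorubicin and 3 with PBS, out of 24 arrays in all. All animals of these groups are labelled as 129SvEv/C57BL/6 males of 6 weeks, given doxorubicin at 25 mg/kg or PBS into the peritoneum. Live cardiomyocytes were taken from each heart on a Langendorff perfusion apparatus, and amplified Cy3-labelled RNA was hybridised to Agilent 1-colour mouse arrays. The deletion is carried by the PBS group too, so each difference sets doxorubicin against PBS within cells that already have a reduced Top2b transcript level. What drives the Cre recombinase is not stated in the labels used here. Nor is it stated whether each array is a separate animal, so a p-value measures the spread between arrays, which may be technical. Wild-type arrays of the same time (3 PBS, 3 doxorubicin) and Top2b-deleted arrays of 72 h (3 and 3) serve as points of comparison.

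Top2b encodes DNA topoisomerase II beta, an enzyme that cuts both strands of the double helix, passes another stretch of DNA through the gap and reseals it. It is the type II enzyme of cells that no longer divide, such as adult cardiomyocytes, whereas Top2a serves dividing cells. Doxorubicin is an anthracycline that traps these enzymes on cut DNA, and it is also known to intercalate into DNA, to redox cycle and to bind iron. Damage to the heart limits its use against cancer, and the question put to these mice is what remains of the response to the drug when cardiomyocytes have little Top2b.

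Levels below are log2 processed signals minus the 75th percentile of the array, so that 0 is the level below which 75% of spots lie. Differences are doxorubicin minus PBS on that scale, ± the standard error of the limma fit, with n = 3 per group, and per-array values are given in the order replicate 1, 2 and 3. A gene is called where its adjusted p is under 0.05, and groups are said not to overlap where all 3 arrays of one lie above all 3 of the other.

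The Top2b transcript was the check on the labels. Its level was 2.99 ± 0.27 (SD, n = 6) on the Top2b-deleted arrays of 16 h and 4.2 ± 0.16 (SD, n = 6) on the wild-type arrays, with ranges of 2.54 to 3.34 and 4.03 to 4.39. The deleted cells thus had 43.0% of the wild-type level, -1.22 on the log2 scale, and an exact two-sided permutation test over 924 splits gave p = 0.00216. Within the deleted cells, Top2b after doxorubicin minus PBS was 0.06 (95% interval -0.44 to 0.57). The genotype given in a separate characteristic disagrees with the title on 4 arrays of 16 h, 2 of them here (PBS replicate 3 and doxorubicin replicate 1). On both of these arrays Top2b lay below every 16 h wild-type array, at 3.03 and 2.54, and with the groups set by the characteristic the difference between genotypes was -0.26 (exact permutation p = 0.509). Groups follow the titles throughout.

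Some features of the 6 arrays bear on every result below. PBS replicate 3 shared its slide with the 3 doxorubicin arrays, and PBS replicates 1 and 2 lay on the slide of the wild-type arrays. A difference seen against PBS replicates 1 and 2 cannot by itself be told apart from a slide effect. Values against PBS replicate 3 stay within 1 slide but rest on 1 PBS array, so they carry that array's own deviation. Doxorubicin replicate 1 alone had the Y-linked Ddx3y above background (2.72), with Xist at -6.16, while the other 5 arrays had Xist between -2.21 and -1.95, although all are labelled male. The Y-linked Eif2s3y was at 3.05 on that array and at -5.25 to -2.23 on the other 5, of which 3 were still well above background. Doxorubicin replicate 1 also stood furthest from its group, with 504 genes over 2-fold away from the mean of the other 2 arrays, against 279 and 307 for doxorubicin replicates 2 and 3 and 188 to 233 for the PBS arrays. The share of spots detected above background ran from 45.8% to 47.9%. The 14 cardiomyocyte marker genes were all detected, with a summed log2 level of 13.52 to 13.60 in PBS and 13.43 to 13.65 in doxorubicin.

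Most of the transcriptome of Top2b-deleted cardiomyocytes stayed close to its PBS level. Of 18276 genes tested, limma called 2 (0.0109%), both higher after doxorubicin, and none lower, while 2220 genes (12.1%) had an unadjusted p under 0.05, 1058 higher (5.79%) and 1162 lower (6.36%). With each array centred on its median, as in the deposited value table, the median of all genes moved from 0.01 to 0.11 and the same split was 2738 higher and 550 lower, so that list medians within about 0.1 of 0 have no fixed sign. The 95% interval of the difference lay within 2-fold either way for 16555 genes (90.6%) and within 1.5-fold for 12814 genes (70.1%). In 182 genes the difference exceeded 2-fold, 79 higher and 103 lower. It was positive in 9612 genes and negative in 8664, and counts by sign below are read against these. The groups did not overlap in 1803 genes that were higher (9.87%) and 1500 that were lower (8.21%), or 18.1% of genes in all, and member counts below are read against these shares. The distance between a PBS and a doxorubicin array (root mean square of log2 differences over genes) was 0.39 to 0.52, against 0.33 to 0.42 between PBS arrays and 0.39 to 0.49 between doxorubicin arrays. In wild type the distance between a PBS and a doxorubicin array was 0.77 to 1.08. The replicate numbers paired the arrays weakly (same-numbered arrays deviated together with r of 0.13, 0.26 and 0.12 over genes), and with the replicate number as a block limma called 0 genes, 2161 having an unadjusted p under 0.05.

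The 2 called genes were Tomm20l, a relative of the mitochondrial import receptor gene Tomm20, and Gm4151, a predicted gene. The Tomm20l probe (mm9 chr12:72222856-72222915) was not well above background on any PBS array, at -6.21, -5.92 and -6.34, and was detected on every doxorubicin array, at -2.82, -3.08 and -2.29. Tomm20l was thus at least 2.17-fold higher. Its limma adjusted p of 0.0254 belongs to the fitted difference of 3.43, which rests in part on PBS values at background. A bound of this kind sets the mean of the detected group against the lowest signal that counts as detected on the arrays of the other. A p given beside a bound, here and below, tests the fitted difference and not the bound. The Gm4151 probe (mm9 chr14:63954498-63954557) was likewise below background in PBS, at -5.61, -5.83 and -6.24. It read -3.22, -3.23 and -3.34 after doxorubicin, at least 1.5-fold higher, with a fitted difference of 2.63 (limma adjusted p = 0.0254). Both genes entered the test through the doxorubicin arrays alone. With detection required on all arrays limma called 0 genes. With the replicate block the limma adjusted p was 0.255 for Tomm20l and 0.210 for Gm4151. Left out in turn, each of the 6 arrays ended both calls, except that Gm4151 kept its call without PBS replicate 3 (limma adjusted p = 0.0335, 1 gene called). Tomm20l also varied between wild-type arrays, at -1.92, -5.42 and -5.57 in PBS and -2.81, -1.49 and -2.10 after doxorubicin. Wild-type PBS replicate 1 thus lay above every Top2b-deleted doxorubicin array.

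A group that recurred among the higher genes was the interferon-inducible GTPases. Among genes well above background on all 6 arrays, the 10 with the widest gap between the highest PBS array and the lowest doxorubicin array included 6 of them: Gm12250 (Irgb10), Igtp (Irgm3), Irgm2, Tgtp2 (Irgb6), Iigp1 (Irga6) and Gm4951. These proteins are induced by interferons, chiefly interferon gamma, and are known for coating and disrupting the vacuoles in which intracellular parasites and bacteria live. The genes were picked out by their difference on these arrays, so their gap is a description. The stretches just upstream of 4 of them are printed because these 4 hold motifs of the factors that interferon activates. They run from 120 bases to 1 base before the start site, from RefSeq on GRCm38.p6, at chr11:58183723-58183842 for Gm12250, chr11:58199436-58199555 for Igtp and chr11:58214857-58214976 for Irgm2, all on the plus strand, and at chr11:49064213-49064332 on the minus strand for Tgtp2. Capitals mark the gamma-activated site TTCNNNGAA and the core of the interferon-stimulated response element, which is a GAAA block, any 2 bases and another GAAA block (TTTC blocks when read from the other strand), both motifs searched on both strands.
Gm12250: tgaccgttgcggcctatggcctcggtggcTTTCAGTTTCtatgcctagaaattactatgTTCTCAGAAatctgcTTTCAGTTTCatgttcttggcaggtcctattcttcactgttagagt
Igtp: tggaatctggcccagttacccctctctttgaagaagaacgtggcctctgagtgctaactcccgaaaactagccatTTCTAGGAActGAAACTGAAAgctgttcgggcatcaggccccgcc
Irgm2: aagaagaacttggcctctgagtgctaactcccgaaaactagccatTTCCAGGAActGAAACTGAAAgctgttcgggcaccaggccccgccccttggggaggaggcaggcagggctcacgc
Tgtp2: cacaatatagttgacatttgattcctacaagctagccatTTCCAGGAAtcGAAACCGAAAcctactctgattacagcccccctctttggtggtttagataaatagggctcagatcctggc
In Igtp, Irgm2 and Tgtp2 the response element core follows the gamma-activated site after 2 bases, and in Gm12250 it lies between a pair of such cores. Over 32851 RefSeq mouse promoters of 300 bases, 8.3% hold the first motif, 3.44% the second and 0.454% both. No match of one motif overlaps a match of the other. The printed stretches were picked with their motifs known, so these shares are background and enrichment was not tested. The stretches of Iigp1 and Gm4951 were left out, and whether they hold the motifs is not given here. A match describes letters and does not show that a factor binds there.

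Gm12250 read -2.48, -2.56 and -2.39 in PBS and -0.55, -0.14 and -0.74 after doxorubicin. Its difference was 2.00 ± 0.16, or 4.01-fold, with a limma adjusted p of 0.0630 that misses the threshold. Igtp read 2.07, 1.86 and 2.06 in PBS and 3.6, 3.23 and 3.42 after doxorubicin, a difference of 1.42 ± 0.12 (limma adjusted p = 0.0715). Their groups were far apart relative to the spread within each, and no PBS array came within 1 log2 unit of a doxorubicin array in either gene.

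Irgm2 read 0.73, 0.43 and 0.83 against 1.77 to 2.34, a difference of 1.29 ± 0.19 (limma adjusted p = 0.245). Tgtp2 read -0.88, -0.94 and -1.31 in PBS and 1.85, 1.0 and 0.02 after doxorubicin, the widest spread of the 6, with a difference of 2.00 ± 0.44 (limma adjusted p = 0.298). Tgtp2 has a near-identical copy, Tgtp1, and its probe may report both. Iigp1 read 1.90, 1.88 and 1.62 against 3.12, 3.23 and 2.55, and Gm4951 1.68, 1.61 and 1.38 against 3.04, 3.1 and 2.38, differences of 1.17 ± 0.19 and 1.29 ± 0.21.

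The 6 differences stayed above 1 log2 unit on the slide of the doxorubicin arrays and without the array with Ddx3y above background. Against PBS replicate 3 alone, on the slide of the doxorubicin arrays, they were 1.92 for Gm12250, 1.36 for Igtp, 1.13 for Irgm2, 2.26 for Tgtp2, 1.34 for Iigp1 and 1.46 for Gm4951. Without doxorubicin replicate 1 they were 2.04, 1.33, 1.10, 1.55, 1.09 and 1.19 in the same order. Each kept its sign under all 20 alternative settings, and Gm12250 and Igtp each passed the threshold under 3 of them. The probes of Gm12250 (mm9 chr11:58003608-58003667), Igtp (chr11:58020927-58020986) and Irgm2 (chr11:58036093-58036152) lie close together on chromosome 11, and that of Tgtp2 further off at chr11:48871837-48871896.

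**Figure D1:**
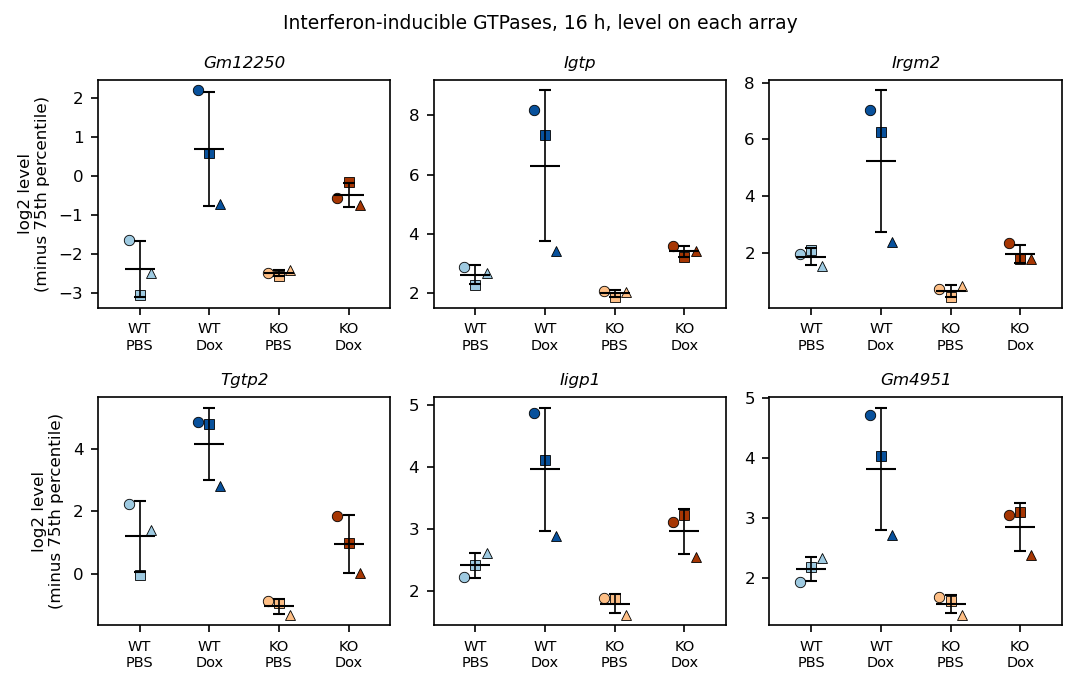
Log2 level (relative to the 75th percentile of the array) of 6 interferon-inducible GTPase genes in wild-type (WT) and Top2b-deleted (KO) cardiomyocytes 16 h after PBS or doxorubicin. Circle, square and triangle are replicates 1, 2 and 3, the line is the mean and the bars the SD (n = 3). In the deleted cells all 3 doxorubicin arrays lie above all 3 PBS arrays for each gene, for example -0.74 to -0.14 against -2.56 to -2.39 for Gm12250.

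The response was uneven across relatives of these genes, which were looked up after the first values were seen. Gbp4, a guanylate binding protein of the same defence system, read -2.53, -2.71 and -2.51 in PBS and -1.18, -1.22 and -2.29 after doxorubicin, a difference of 1.02. F830016B08Rik (1.43) and Gbp10 (0.55) also had no overlap. Irgm1 (0.40), Ifi47 (0.30) and Gbp2, Gbp3, Gbp5, Gbp6, Gbp7 and Gbp9 (0.07 to 0.53) were all above 0 with groups that overlapped.

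Among the 36 measured genes of the interferon-stimulated list, 0 were called, 32 had a positive difference, 8 were higher with no overlap (9.87% of all genes were) and 1 was lower with no overlap. The median was 0.30, against 0.01 over all genes tested. The 8 were Igtp, Irgm2, Iigp1, Rsad2 (0.64), Trim25 (0.21), Mx2 (0.58), Isg20 (0.33) and Oas2 (0.76). Much of the breadth came from doxorubicin replicate 1: without it 21 of 36 differences were positive and the median was 0.06. Against PBS replicate 3 alone the median was 0.34. The summed log2 level of the list was 6.58 to 6.61 in PBS and 6.75 to 7.13 after doxorubicin.

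Among common type I interferon markers, Rsad2, Mx2 and Oas2 were higher with no overlap, as given above. Other such markers, given next, had small differences with wide intervals. Ifit1, which binds foreign RNA, differed by 0.15 (95% interval -1.26 to 1.56), Irf7, a transcription factor that amplifies interferon production, by 0.21 (-0.60 to 1.02), Isg15, a ubiquitin-like modifier, by 0.33 (-0.43 to 1.09), and Ifit2 by 0.33 (-0.11 to 0.77). Of the 4 list members with a negative difference, Cxcl10, a chemokine that draws T cells, lay furthest below 0. Cxcl10 read -1.88, -1.96 and -1.80 in PBS and -2.06, -5.09 and -3.44 after doxorubicin. Its difference was -1.64 ± 0.70, and doxorubicin replicate 2 was not well above background. Nlrc5, the activator of MHC class I genes, was not well above background on any PBS array and was on all doxorubicin arrays, at least 2.03-fold higher (limma adjusted p = 0.315). Cmpk2, a nucleotide kinase of the interferon programme, was at least 1.61-fold higher in the same way (limma adjusted p = 0.245).

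A pair of genes of acute inflammation stood higher, S100a9 of the neutrophil markers and Lcn2 of the acute phase and IL6-STAT3 list. The medians of these lists were 0.04 and -0.02. S100a9, a calcium-binding alarmin stored in neutrophils, read -4.94, -4.60 and -4.95 in PBS, none well above background, and -1.59, -3.10 and -1.97 after doxorubicin, at least 3.09-fold higher (limma adjusted p = 0.245). Lcn2, an iron-siderophore binding protein induced in stressed heart muscle and stored in neutrophil granules, read 0.13, 0.98 and 0.06 in PBS and 1.68, 1.87 and 1.54 after doxorubicin, a difference of 1.31 ± 0.26 that was also 1.31 without doxorubicin replicate 1 (limma adjusted p = 0.280). Of the 13 neutrophil markers 4 were measured in this comparison, and 2 of these, Csf3r and Elane, differed by 0.05 and -0.05. The summed log2 level of the detected neutrophil markers was 6.12 to 6.33 in PBS and 6.17 to 6.37 after doxorubicin, and the part of neutrophils in S100a9 and Lcn2 was not tested. Of the 20 measured genes of the acute phase and IL6-STAT3 list, which does not hold S100a9, 0 were called and the median was -0.02. With no overlap 2 were higher, Lcn2 among them, and 1 was lower. Socs3, the feedback inhibitor of the IL6-STAT3 pathway, differed by -0.54.

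Targets of glucocorticoids and fasting tended upwards, at modest size. Of 33 genes, all measured, 0 were called, 27 had a positive difference, 6 were higher and 2 lower with no overlap, and the median was 0.36 (0.39 against PBS replicate 3 alone, and 0.24 with 23 positive without doxorubicin replicate 1). Ddit4 (Redd1), a stress-induced brake on mTORC1, read 5.92, 5.98 and 6.20 in PBS and 7.08, 7.43 and 6.75 after doxorubicin, a difference of 1.06 ± 0.18 or 2.08-fold (limma adjusted p = 0.247). Klf15, a transcription factor of cardiac lipid and amino acid use, read 2.16, 2.10 and 2.01 against 3.08, 3.09 and 2.36 (0.75 ± 0.21). The arrestin-like Arrdc2 read 0.22, 0.63 and 0.23 against 2.06, 1.43 and 0.81 (1.08 ± 0.31). Foxo1 (0.37) and Tat (0.21) were the remaining genes above PBS on every array besides Lcn2. The receptor gene Nr3c1 (-0.19) and Angptl4, a lipoprotein lipase inhibitor (-0.97), were lower with no overlap. Fkbp5 and Zbtb16, both classical glucocorticoid targets, overlapped between groups, with differences of 0.74 ± 0.43 and 0.30 ± 0.42.

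p53 targets, which double-strand breaks activate, showed no common direction. Of 37 measured targets, 0 were called, 22 had a positive difference, 6 were higher and 4 lower with no overlap, and the median was 0.07, against 0.01 over all genes. Cdkn1a, the cyclin-dependent kinase inhibitor p21, read 3.57, 2.71 and 3.07 in PBS and 3.62, 3.97 and 3.40 after doxorubicin, a difference of 0.55 (95% interval -0.05 to 1.14). Mdm2, the ligase that removes p53, read 4.82, 4.77 and 4.86 against 5.06, 5.0 and 4.88, without overlap but only 0.16 apart. The pro-apoptotic Bax differed by -0.16 (-0.39 to 0.07), Phlda3, a repressor of Akt, by -0.56 (-1.23 to 0.11), and Trp53inp1 by 0.70 (-0.36 to 1.76). The largest positive difference was that of Ddit4, which other stresses also induce, and the largest negative one that of Gdf15. Plk3 (-0.94) and Plk2 (-0.59), stress-responsive kinases, were lower on all doxorubicin arrays.

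Genes of DNA damage signalling and repair were mostly above their PBS means by small amounts. Of 40 measured, 0 were called, 32 had a positive difference, 9 were higher and 0 lower with no overlap (22.5% against 18.1% of all genes in either direction), and the median was 0.10. Against PBS replicate 3 alone 26 had a positive and 14 a negative difference, with a median of 0.05. Brca2, a mediator of homologous recombination, read -2.49, -2.26 and -1.96 against -1.83, -1.67 and -1.55 (0.55 ± 0.15). Prkdc, the catalytic kinase of end joining, read -0.41, -0.39 and -0.41 against -0.03, -0.21 and -0.18 (0.26 ± 0.08). All 7 measured topoisomerase genes and partners lay between -0.14 (Tdp1, which removes topoisomerase adducts) and 0.16 (Top3b), Top1 at -0.08 and Top3a at 0.15.

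Cell death genes had small differences. Of 26 measured genes of the BCL2 family and caspases, 0 were called, and the median was 0.07. With no overlap 7 were higher and 3 lower (38.5% against 18.1% of all genes in either direction). Bcl2l1, which encodes the survival protein Bcl-xL, read 4.48, 4.51 and 4.50 in PBS and 5.79, 5.36 and 4.73 after doxorubicin, a difference of 0.79 ± 0.25. Casp6, an executioner caspase, read 1.06, 1.14 and 1.34 against 1.48, 1.61 and 1.55 (0.37 ± 0.10), and Bik, a pro-apoptotic member, differed by -0.34.

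Iron, heme and antioxidant genes showed small and mixed differences. Hmox1, the inducible heme oxygenase, read 1.70, 1.49 and 0.95 in PBS and 2.16, 2.02 and 0.96 after doxorubicin (0.33, 95% interval -0.52 to 1.19). Tfrc, the transferrin receptor, read 2.10, 1.99 and 2.50 against 1.39, 2.04 and 3.12 (-0.01, -1.03 to 1.02). Both pairs of groups overlapped. Of 23 measured iron and heme genes 4 were higher and 1 lower with no overlap, among them the iron exporter Slc40a1 (0.48 ± 0.14) and transferrin, Trf (-0.77 ± 0.21). In the NRF2 and antioxidant list 3 of 33 were higher and 0 lower with no overlap, 9.09% against 18.1% of all genes, with Nqo1 at 0.22, Txnrd1 at 0.18 and Gclm at 0.09. Metallothionein Mt2 read 8.25, 7.58 and 6.84 on the doxorubicin arrays against 6.75 to 6.85 in PBS, so that only replicates 1 and 2 stood out. Among 20 genes of anthracycline efflux and reduction, Xdh, a xanthine-oxidising enzyme that can reduce the drug, was 0.51 ± 0.13 higher and the carbonyl reductase Cbr3 0.64 lower (difference -0.64 ± 0.19). None of the genes in these 3 lists was called.

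Mitochondrial genes sat close to 0. Complex I had 41 measured genes with differences of -0.08 to 0.14 and a median of 0.04, and complexes II to V had 51 with a median of 0.03 (-0.17 to 0.35). The upper end was Cox15, a heme A synthase needed to build cytochrome oxidase, at 1.71, 1.49 and 1.67 against 1.86, 2.05 and 2.01. Among 33 regulators of mitochondrial biogenesis 26 had a positive difference, 4 were higher and 1 lower with no overlap, and the median was 0.10. Nrf1, the nuclear respiratory factor, read 0.24, 0.23 and 0.27 against 0.52, 0.59 and 0.52 (0.29 ± 0.07), and Polg2, the accessory subunit of the mitochondrial polymerase, 0.33 ± 0.08. Ppargc1a, the coactivator that drives that programme, differed by -0.36 (-1.22 to 0.50). Genes of fatty acid oxidation had a median of 0.12 over 36 genes, and those of glycolysis and the TCA cycle 0.04 over 43. Without doxorubicin replicate 1 the fatty acid median was 0.20, and against PBS replicate 3 alone 0.08. Without doxorubicin replicate 1, 24 of the 36 were higher with no overlap (66.7%, against 24.4% of all genes). The same share was 43.9% for complex I and 43.1% for complexes II to V, with medians of 0.06 and 0.04. No gene of the 5 lists in this paragraph was called.

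The contractile and electrical machinery had small differences for the most part, with a few genes above or below every PBS value. Ttn, the giant spring protein of the sarcomere, read 6.81, 6.92 and 6.92 in PBS and 7.33, 7.55 and 7.76 after doxorubicin, a difference of 0.66 ± 0.12 or 1.58-fold (limma adjusted p = 0.266). Casq1, a calcium-storing calsequestrin, read 0.77, 0.70 and 0.57 against 1.09, 1.26 and 1.5 (0.61 ± 0.13). The channel genes Kcnq1 (3.99, 3.87 and 4.01 against 4.2, 4.30 and 4.38) and Cacnb2 (0.82, 0.82 and 1.04 against 1.09, 1.35 and 1.22) were 0.34 and 0.33 higher. Jph2, a junctophilin that holds the T-tubule to the calcium store, read 3.02, 2.76 and 3.09 against 2.63, 2.53 and 2.65, a difference of -0.36. The calcium pump gene Atp2a2 (0.05), the ryanodine receptor gene Ryr2 (0.31) and the pump inhibitor Pln (0.25) overlapped between groups. Of 41 measured genes of calcium handling and conduction, 0 were called, 5 were higher and 2 lower with no overlap, with a median of 0.09, and of 34 sarcomere and Z-disc genes 0 were called, 1 was higher and 3 were lower, with a median of -0.03.

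Several transcripts of the stressed heart were lower after doxorubicin. Of 22 measured fetal and stress genes, 0 were called, 16 had a negative difference, 7 were lower with no overlap (8.21% of all genes were) and 2 were higher, with a median of -0.28 (-0.24 against PBS replicate 3 alone and -0.52 without doxorubicin replicate 1). Nppb, the gene of the natriuretic peptide BNP and a marker of wall stress, read 8.87, 8.63 and 8.73 in PBS and 8.13, 7.35 and 7.22 after doxorubicin, a difference of -1.18 ± 0.24 (limma adjusted p = 0.285). Gdf15, a stress-induced hormone of the TGF-beta superfamily that suppresses appetite, read 6.05, 5.76 and 5.95 against 5.19, 3.07 and 3.51, a difference of -2.0 ± 0.52 (limma adjusted p = 0.329). In both genes doxorubicin replicate 1 lay nearest to the PBS arrays, and without it the differences were -1.46 and -2.63.

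Itgb1bp3 (Nmrk2), a nicotinamide riboside kinase of the NAD salvage route that is induced in failing hearts, read 6.80, 7.17 and 6.52 against 5.94, 4.68 and 4.94, a difference of -1.65 ± 0.35 (limma adjusted p = 0.285). Tnfrsf12a, the receptor for the cytokine TWEAK, read 7.07, 7.02 and 6.85 against 6.16, 6.28 and 6.26 (-0.75 ± 0.09), a small difference with a narrow spread. Rcan1, a calcineurin inhibitor and target, was -0.80 apart, the actin-binding Xirp1 -0.57 and the matricellular Ctgf -0.70, each without overlap. Fgf21, a starvation and stress hormone, read -1.88, -3.04 and -2.30 in PBS and was well above background on 1 of 3 doxorubicin arrays (difference -1.77 ± 0.38). Nppa, the other natriuretic peptide gene, overlapped between groups, at 10.67, 10.81 and 10.61 against 10.99, 10.59 and 10.16. The 2 genes of the list that were higher were the cardiac transcription factors Nkx2-5 (0.30) and Tbx5 (0.37).

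**Figure D2:**
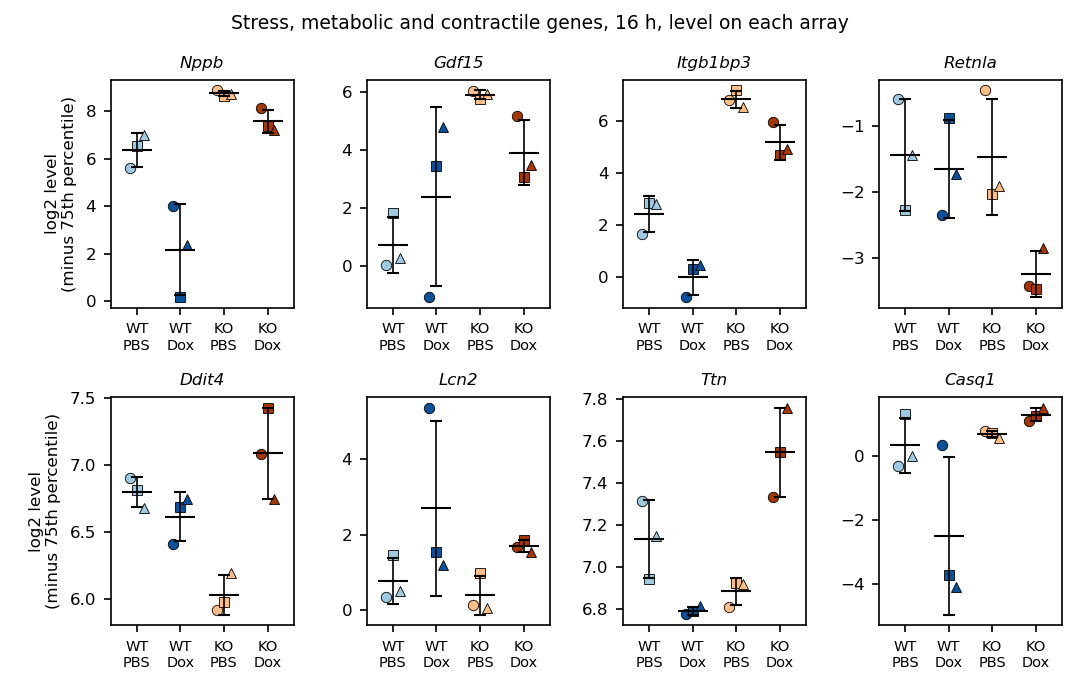
Log2 level of 8 genes in wild-type (WT) and Top2b-deleted (KO) cardiomyocytes 16 h after PBS or doxorubicin, drawn with replicates 1, 2 and 3 as circle, square and triangle, the mean as a line and the SD as bars (n = 3). In the deleted cells Nppb, Gdf15, Itgb1bp3 and Retnla lie lower after doxorubicin and Ddit4, Lcn2, Ttn and Casq1 higher, with no overlap in any of the 8, and doxorubicin replicate 1 is the nearest of its group to the PBS arrays for Gdf15 (5.19 against 3.07 and 3.51).

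Of 24 measured immediate early genes, 0 were called, 17 had a negative difference, 5 were lower and 0 higher with no overlap, and the median was -0.26 (-0.13 against PBS replicate 3 alone). Klf4 read 1.40, 1.35 and 1.15 against 0.99, 0.85 and 0.87, and Junb -0.73, -1.21 and -1.19 against -1.47, -1.87 and -1.52. Myc differed by -0.92 ± 0.37 with groups that overlapped. Of 44 genes of ribosome biogenesis and RNA polymerase I, 0 were called, and 6 were higher and 9 lower with no overlap (34.1% against 18.1% of all genes). The median was 0.00, with Rrp12 at -0.66 ± 0.16 and the assembly factor Tsr1 at -0.31 ± 0.08. Of 25 heat shock genes, 0 were called, 1 was higher and 5 lower with no overlap, among them Hsp90aa1 (5.81, 5.69 and 5.77 against 5.51, 5.34 and 5.26). In the integrated stress response list (28 measured) 6 were higher and 4 lower, in the cell cycle list (30) 6 and 3, in the circadian list (18) 0 and 2, and in the atrophy and autophagy list (29) 4 and 1, with 0 called in each. The shares without overlap were 35.7%, 30%, 11.1% and 17.2% in that order, against 18.1% of all genes.

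Several of the lower genes are known chiefly from cells other than cardiomyocytes. In RNA of a whole cell preparation, fewer cells of a type and less RNA per cell cannot be told apart. Among genes well above background on all 6 arrays, the 10 lower ones with the widest gap were Retnla, Hhex, Meox1, Itih5, Clec3b, 2610318M16Rik, Tspan9, Prdm1, Itgb1bp3 and Bcl6b. Retnla, a marker of alternatively activated macrophages, read -0.46, -2.03 and -1.91 in PBS and -3.43, -3.47 and -2.85 after doxorubicin (-1.78 ± 0.44, limma adjusted p = 0.318). Hhex, a homeobox factor of endothelial and blood lineages, read -1.76, -2.51 and -2.32 against -3.51, -3.32 and -3.71 (-1.32 ± 0.21). Meox1, a homeobox factor of activated fibroblasts, read -0.74, -0.42 and -1.11 against -2.15, -2.70 and -1.92 (-1.50 ± 0.25), and Clec3b (tetranectin) -1.61, -1.34 and -1.18 against -2.47, -2.50 and -2.36 (-1.07 ± 0.12). Bcl6b differed by -1.34, Itih5 by -1.24, Tspan9 by -0.87 and Prdm1 by -0.84.

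Cfd, the adipocyte-secreted complement factor D, read -0.86, -1.26 and -1.68 in PBS and -4.10, -4.29 and -3.69 after doxorubicin. Only 1 of the 3 doxorubicin arrays was well above background, so the fitted difference of -2.76 ± 0.25 rests in part on values at background, and its limma adjusted p of 0.0732 misses the threshold. Car3, a carbonic anhydrase abundant in fat, was detected on all PBS arrays and on no doxorubicin array, at least 2.20-fold lower (limma adjusted p = 0.247), and the lipid transporter Abca9 was at least 2.03-fold lower in the same way (limma adjusted p = 0.285). In all, 25 genes were detected on every doxorubicin array and no PBS array and 36 the other way round, with 3 bounds over 2-fold in each direction.

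Marker lists of such cells had mostly negative differences, whose size depends on which PBS arrays are used. Of 20 measured macrophage markers, 0 were called, 19 had a negative difference and 6 were lower with no overlap, with a median of -0.70, which was -0.93 against PBS replicates 1 and 2 and -0.18 against PBS replicate 3. Mrc1, the mannose receptor, read -0.48, -0.27 and -1.13 against -1.62, -1.48 and -2.14, and Csf1r, the receptor macrophages need to survive, 2.98, 3.1 and 2.60 against 2.46, 2.17 and 1.95. Of 19 fibroblast markers 0 were called, 18 had a negative difference and 4 were lower with no overlap, with a median of -0.64 (-0.84 and -0.30 against the same 2 sets). Of 21 endothelial markers 0 were called, 18 had a negative difference and 3 were lower with no overlap, with a median of -0.28 (-0.40 and -0.04). The summed log2 level of the macrophage list was 4.24 to 5.09 in PBS and 3.79 to 4.49 after doxorubicin, and that of the fibroblast list 6.65 to 7.53 and 6.19 to 6.75.

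Matrix and inflammatory genes also had mostly negative differences. The fibroblast markers are themselves partly collagen and matrix genes, so that list and the matrix list are not separate observations. Of 32 measured collagen and matrix genes, 0 were called, 31 had a negative difference, 7 were lower and 1 higher with no overlap, and the median was -0.54 (-0.76 against PBS replicates 1 and 2 and -0.23 against PBS replicate 3). Thbs1, a matricellular activator of TGF-beta, read 0.02, 0.10 and -0.79 against -1.0, -1.96 and -2.18, and the proteoglycan Bgn 0.30, 0.76 and 0.15 against -0.07, -0.53 and -0.92. Of 18 measured cytokines and chemokines, 0 were called, 16 had a negative difference and 3 were lower with no overlap, with a median of -0.49 (-0.70 and -0.15). Ccl5, which attracts T cells, read -1.78, -1.92 and -1.77 against -2.14, -3.17 and -4.56, and Ccl2, which attracts monocytes, overlapped between groups (-0.93 ± 0.34). For the part of these differences that PBS replicate 3 does not show, slide, treatment and variation of that array cannot be told apart. Cardiomyocyte markers had a median of 0.02 over 14 genes.

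The remaining marker lists had few measured members and differed in direction. Smooth muscle and pericyte markers had a median of -0.04 over 16 genes (0.17 against PBS replicate 3 alone). Atrial markers had a median of 0.48 over 9 genes (0.72 against PBS replicate 3 alone and 0.13 without it), 7 of them positive, with 0 higher and 1 lower without overlap. The 9 measured Schwann and mesothelial markers all had a negative difference, with overlap in each and a median of -0.53 (-0.65 against PBS replicate 3 alone). Of 18 lymphocyte markers 4 were measured (median -0.12), and of 8 adipocyte markers 2, Cfd and Fabp4 (-0.30). Of 10 erythroid markers 6 were measured, with a median of -0.29 whose sign rests on single arrays, being 0.29 without PBS replicate 1, 0.36 against PBS replicate 3 alone and -0.68 without doxorubicin replicate 1.

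**Figure D3:**
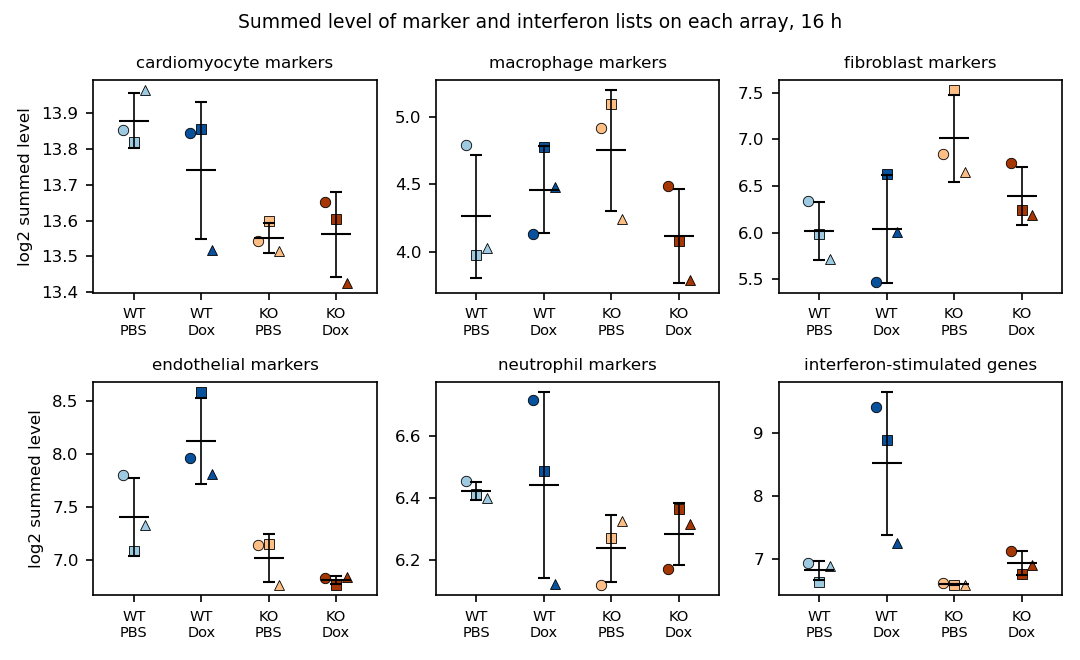
Log2 of the summed linear levels of the measured genes of 6 lists on each 16 h array, for wild-type (WT) and Top2b-deleted (KO) cells after PBS or doxorubicin (replicates 1, 2 and 3 as circle, square and triangle). Cardiomyocyte markers hold one level over all 6 Top2b-deleted arrays (13.43 to 13.65), while macrophage markers reach 3.79 to 4.49 after doxorubicin against 4.24 to 5.09 in PBS.

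Far more genes differed between doxorubicin and PBS in wild-type cardiomyocytes of the same time. There limma called 2233 of 17837 genes (12.5%), 1116 higher and 1117 lower (6.26% each), a count that was 487, 392 and 315 without PBS replicate 1, 2 and 3, and 716 and 3955 without doxorubicin replicate 2 and 3. The Y-linked Ddx3y was above background on all 3 wild-type PBS arrays and on 1 of 3 wild-type doxorubicin arrays. Esr1 was at background on the wild-type PBS arrays (-5.95 to -5.48) and on wild-type doxorubicin replicate 1 (-5.43). It was well above background on wild-type doxorubicin replicates 2 and 3 (0.60 and 1.05) and read 5.04 to 6.45 on the Top2b-deleted arrays. The part of sex or of the Esr1 difference in the wild-type values, and in the comparisons with them, was not tested. The residual spread was wider in wild type, with a median SD of 0.27 against 0.15 in the deleted cells. Of 680 genes called at least 2-fold higher in wild type, the median difference was 1.5 in wild type and 0.06 in the deleted cells. Of these, 410 had the same sign and 12 reached 2-fold. The 95% interval of the deleted cells excluded the wild-type value in 671, and the test of the difference between responses (below) passed in 518. Of 728 genes called at least 2-fold lower in wild type (median -1.47), the median in the deleted cells was 0.03. Of these, 336 had the same sign and 10 reached 2-fold. The interval excluded the wild-type value in 713, and the test of the difference passed in 594. The genes were picked for large wild-type values, and the interval takes no account of the wild-type error. These counts therefore lean towards a difference and are descriptions.

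**Figure D4:**
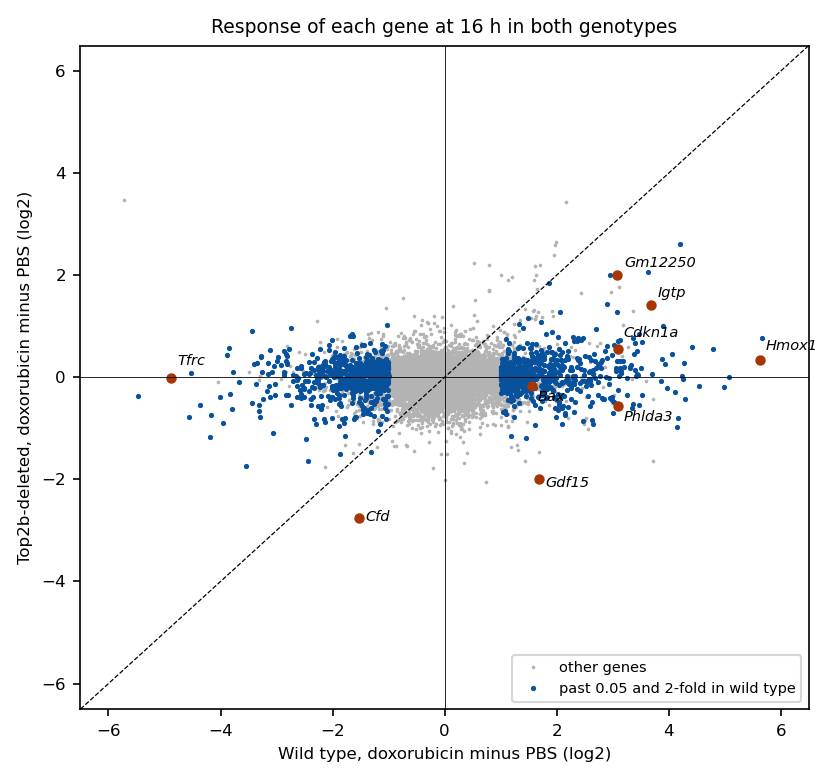
Doxorubicin minus PBS (log2) of each gene in Top2b-deleted cells (vertical axis) against wild-type cells (horizontal axis) at 16 h, with genes called at least 2-fold either way in wild type in blue and the line of equal response dashed. The blue genes spread along the horizontal axis and stay near 0 on the vertical one, with medians of 0.06 for the 680 higher and 0.03 for the 728 lower genes.

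The difference between the genotypes' responses was tested directly, in 1 fit of the 12 arrays. The response differed in 2146 of 18733 genes (11.5%), 1164 higher in the deleted cells (6.21%) and 982 lower (5.24%). With the slide as a block the count was 375, of which 366 were among the 2146. Without 1 array the count moved by over 1.5 times in 8 cases, to 1264 without wild-type PBS replicate 2, 1380 without wild-type PBS replicate 3, 4735 without wild-type doxorubicin replicate 3, 1055, 1013 and 1365 without Top2b-deleted PBS replicate 1, 2 and 3, and 1112 and 1046 without Top2b-deleted doxorubicin replicate 2 and 3.

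Genes that define the damage and stress response were among those that differed. Of the 37 p53 targets, 16 had a lower response in the deleted cells and 1 a higher one (5.24% and 6.21% of all genes), and the median was 1.09 in wild type and 0.07 in the deleted cells. Phlda3 differed by -3.65 ± 0.32 (limma adjusted p = 0.000372) and Bax by -1.72 ± 0.14 (limma adjusted p = 0.000334). Hmox1 had a response of 5.63 in wild type and 0.33 in the deleted cells, a difference of -5.29 ± 0.66 (limma adjusted p = 0.00173). Tfrc had -4.88 and -0.01, a difference of 4.87 ± 0.67 (limma adjusted p = 0.00240). Of 41 calcium handling and conduction genes, 14 had a higher response in the deleted cells and 0 a lower one. The median of this list was -0.71 in wild type and 0.09 in the deleted cells. Cacnb2 differed by 2.36 ± 0.20 (limma adjusted p = 0.000334) and Kcnq1 by 2.00 ± 0.27 (limma adjusted p = 0.00214).

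In other genes the mean differences had opposite signs in the genotypes. The response of Ddit4 was -0.19 ± 0.17 in wild type and 1.06 in the deleted cells, a difference of 1.24 ± 0.25 (limma adjusted p = 0.0124), and that of Ttn -0.34 and 0.66, a difference of 1.01 ± 0.19 (limma adjusted p = 0.00955). The transcript 2610318M16Rik read 1.11, 1.11 and 1.02 in PBS and 0.29, 0.02 and -0.11 after doxorubicin in the deleted cells, while wild type differed by 0.44, so that the response differed by -1.46 ± 0.21 (limma adjusted p = 0.00316). Hhex responded by 1.30 in wild type and -1.32 in the deleted cells (difference -2.62 ± 0.59, limma adjusted p = 0.0208).

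The interferon-inducible GTPases were not shown to differ between genotypes. Wild-type responses were 3.08 for Gm12250, 3.69 for Igtp, 3.36 for Irgm2, 2.96 for Tgtp2, 1.54 for Iigp1 and 1.67 for Gm4951, each larger than in the deleted cells, and the limma adjusted p of the difference was 0.441, 0.282, 0.326, 0.560, 0.713 and 0.715 in that order. The differences have wide errors, for example -2.27 ± 1.30 for Igtp. In each of these GTPase genes wild-type doxorubicin replicate 3 was the lowest of its group. It lay within the range of the Top2b-deleted doxorubicin arrays for Gm12250 (-0.70), Igtp (3.42), Iigp1 (2.90) and Gm4951 (2.72). For Irgm2 (2.38) and Tgtp2 (2.82) it lay above that range. Over the whole interferon list 11 of 36 responses were called lower in the deleted cells and 0 higher, with a median of 1.97 in wild type and 0.30 in the deleted cells. Those called included Ifit1 (-3.25), Irf7 (-2.99), Ifit2 (-2.48), Tap1 (-3.51), which loads peptides for MHC class I, and Cxcl10 (-5.36). Nppb fell in wild type too, by 4.19 on the log2 scale, and the difference of 3.02 ± 1.07 missed the threshold (limma adjusted p = 0.0943).

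**Figure D5:**
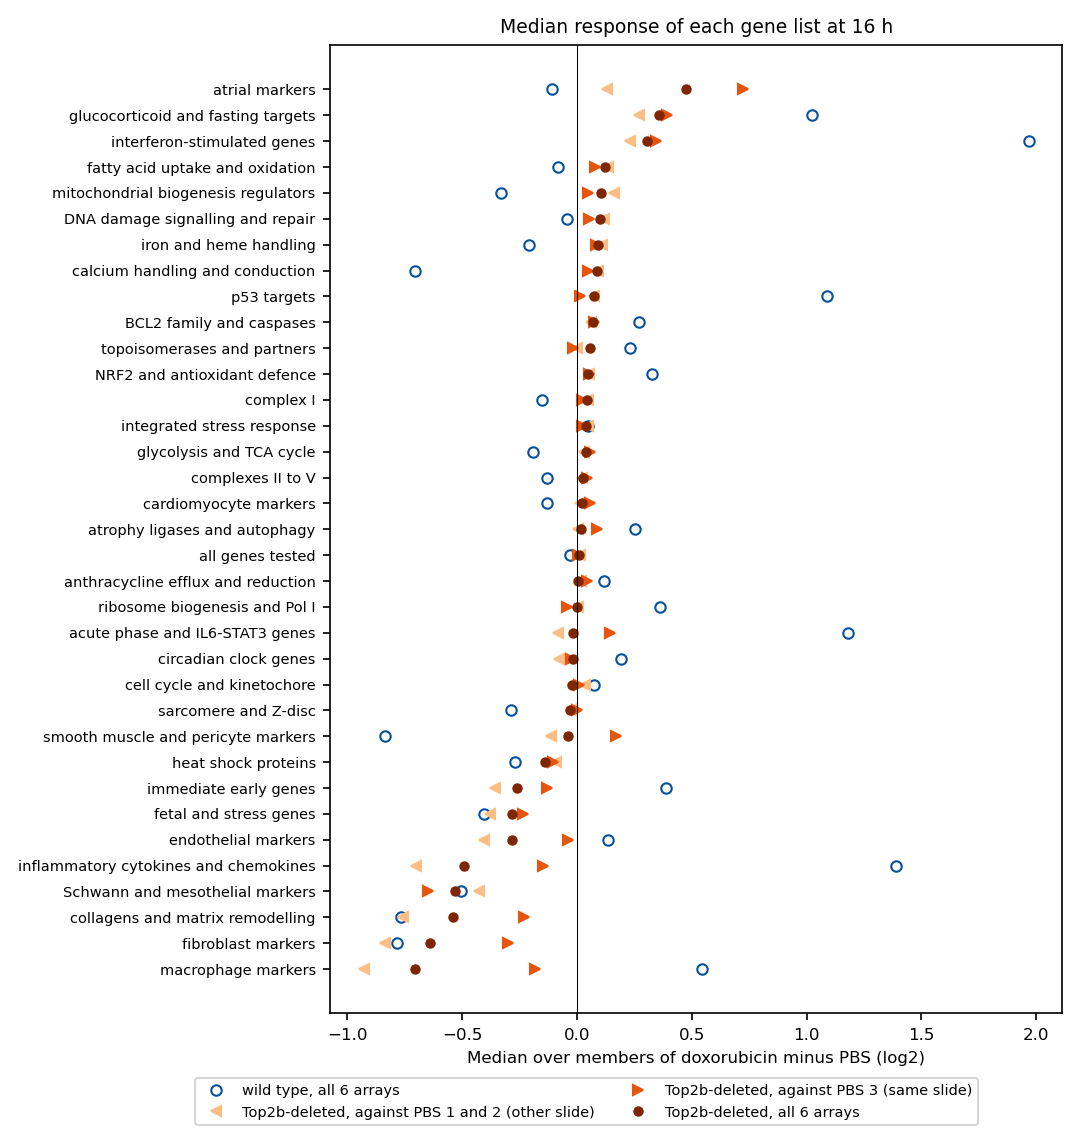
Median over list members of doxorubicin minus PBS (log2) at 16 h, for gene lists with at least 7 measured members and for all genes tested, in wild type (open circles) and in Top2b-deleted cells (filled circles), with the deleted cells' medians against PBS replicate 3 alone and against PBS replicates 1 and 2 as triangles. The filled circles run from -0.70 (macrophage markers) to 0.48 (atrial markers), and for macrophage markers the value against PBS replicate 3 alone is -0.18.

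At 72 h limma called 0 of 19007 genes (0%) in Top2b-deleted cells, with 539 at an unadjusted p under 0.05. Those arrays lie on other slides, scanned at another time, so the 2 times are set side by side with no test. Gm12250 differed by -0.14, Igtp by -0.32, Irgm2 by -0.28, Tgtp2 by 0.53, Iigp1 by -0.07 and Gm4951 by -0.02 at 72 h. Nppb differed by -0.23, Ddit4 by 0.36, Ttn by -0.07, Gdf15 by 0.38 and Itgb1bp3 by 0.90. Retnla differed by -1.51 and Lcn2 by 0.87. The median of the interferon list was 0.02, that of the macrophage list -0.16 and that of the fibroblast list 0.21.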

How the data were processed

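RNA of isolated mouse cardiomyocytes was measured on 24 Agilent 1-colour arrays, of which 6 make up the comparison described. Per the file headers, the scans were read with Feature Extraction 10.7.3.1 of Agilent, and the deposited processed intensity of a spot is linear and background-subtracted. A deposited value table holds a linear ratio, that intensity divided by the median of the array (found by comparison, SD of the log2 difference at most 1.08e-06), and serves as an alternative. Probe positions are those of mm9 per the file headers.

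Processed intensities of 59305 non-control spots were converted to log2 and the array's 75th percentile was subtracted, outlier spots being missing. The 75th percentile was 220 to 282 on the 6 arrays, and the number of arrays limits the precision. A gene took its brightest probe detected above background throughout a group of 3 arrays (20048 genes), and a fit tested genes so detected in 1 of its groups. The 6 arrays were fitted with their own spread in limma 3.58.1 (R 4.3.3, lmFit and eBayes, Benjamini-Hochberg adjustment over all genes, threshold 0.05). The procedure was tested on simulated data. An exact permutation test of 3 arrays against 3 cannot go below p = 0.1. The replicate numbers were used as a block in an alternative fit, since every same-numbered pair of the 6 arrays correlated above 0.1.

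The arrays compared, 39 gene lists (27 of pathways, 12 of cell type markers, 1100 entries) and the tests were chosen with earlier results of these data known. Genes named are called genes, the 10 in each direction with the widest gap between groups among genes detected on all 6 arrays, up to 5 bounded genes in each direction, in each list the 3 genes of smallest p, the topoisomerases, the 5 largest response differences in each direction and 37 fixed genes; some of these are given by counts only. Gbp genes, Irgm1, Ifi47, F830016B08Rik, Tnfrsf12a, Ifit1, Isg15, Irf7, Cxcl10, Arrdc2, Angptl4, Nr3c1, Rcan1, Xirp1, Ctgf, Nkx2-5, Tbx5, and list members given only for not overlapping were named after their values were seen.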

Additional observations from a re-analysis of the deposited data

Results flagged for a closer look

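The response to doxorubicin at 16 h differed between Top2b-deleted and wild-type cardiomyocytes in 2146 genes by the interaction term of the limma fit of 12 arrays. With the slide as a block the count was 375. Values below are the Top2b-deleted response minus the wild-type response on the log2 scale, for the named genes whose difference passed an adjusted p of 0.05. A positive value does not by itself mean a rise in the deleted cells, where Jph2, Bik and Tspan9 were lower after doxorubicin. Nor does a negative value by itself mean a fall there.

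In the p53 and cell death lists the response was lower in the deleted cells for Phlda3 (-3.65), Trp53inp1 (-2.83), Cdkn1a (-2.54), Bax (-1.72), Bcl2l1 (-1.50) and Mdm2 (-0.87), and higher for Ddit4 (1.24), Casp6 (1.08) and Bik (1.06). Among interferon and inflammatory genes it was lower for Cxcl10 (-5.36), Il6ra (-3.60), Tap1 (-3.51), Ifit1 (-3.25), Irf7 (-2.99), Ccl2 (-2.56), Ifit2 (-2.48) and the macrophage marker Mrc1 (-1.75). Among redox and iron genes it was lower for Hmox1 (-5.29), Xdh (-2.35), Gclm (-1.77), Ucp2 (-1.57) and Txnrd1 (-1.44), and higher for Tfrc (4.87). Among hormone and clock genes it was lower for Per2 (-2.95), Zbtb16 (-2.50), Bhlhe41 (-2.41) and Fkbp5 (-2.40), out of 5 lower and 1 higher among 33 glucocorticoid and fasting targets and 5 lower among 18 clock genes.

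Among genes of heart muscle the response was higher in the deleted cells for Cacnb2 at 2.36, Gja5 at 2.24, Kcnq1 at 2.00, Nkx2-5 at 1.73, Jph2 at 1.54, Pln at 1.30, Ttn at 1.01 and the chaperone Dnajb5 at 0.99, and among mitochondrial genes for Nrf1 (1.30), Sco1 (1.28) and Cox15 (0.81). The remaining genes with a lower response were Spc25 (-4.40), D430040L24Rik (-4.22), Myc (-3.57), Ctgf (-2.85), Hhex (-2.62), Tsr1 (-1.47), 2610318M16Rik (-1.46) and Car1 (-1.36). Those with a higher response were Gm14492 (4.61), Lingo3 (4.33), Rcor2 (3.89), Pde4a (3.64), 6720420G18Rik (2.28) and Tspan9 (1.26). For Gm4151 the fitted value was 3.55, but its probe was well above background on 0 of 3 Top2b-deleted PBS arrays and the gene was not tested within wild type, so no size can be read from it.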

How the results depend on the processing

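The count of 2 genes called in Top2b-deleted cells at 16 h was 0 with the replicate number as a block, 0 with the spread shared over the 4 groups of 16 h, 0 within the slide of the doxorubicin arrays, 0 without the arrays whose genotype labels differ or with the genotype from the characteristic, and 0 with no filter on dim probes or with detection required on all arrays. It was 1 with normexp correction, quantile normalization or the mean of a gene's probes, 3 with the slide as a block or the deposited value table, 6 with a trended robust eBayes, and 8 with array weights, where Gm12250 and Igtp passed in both of the last. Leaving out each array gave 0 to 1. For the difference of responses the count of 2146 was 375 with the slide as a block, 981 with no dim filter and 1013 to 4735 without 1 array. The wild-type count of 2233 was 5272 with the shared spread, 844 with no dim filter and 315 to 3955 without 1 array (487, 392 and 315 without PBS replicate 1, 2 and 3, and 716 and 3955 without doxorubicin replicate 2 and 3). The 72 h count was 0 under every alternative run, including without 1 array. The replicate block changed no other call of the Top2b-deleted comparison, and for the difference of responses gave 2001. The Top2b difference of -1.22 was -0.26 with the genotype from the characteristic (exact permutation p = 0.509).

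The deposited value table, centred on each array's median, moved the median of all genes from 0.01 to 0.11, and 83.3% of genes with an unadjusted p under 0.05 were then higher, against 47.7%. The difference of responses was then 63.9% higher calls, against 54.2%. Small differences of lists near 0 thus have no fixed sign. Of 124 named genes whose groups do not overlap, 105 kept their sign under all 20 alternatives, and 120 did so apart from regrouping by the characteristic. What signal over background limits is the size of the change in genes detected in 1 group alone, given as bounds.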
